A study of Mus musculus with 6 samples.

Results

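The genes described here are 35 genes of glycolysis and of the response to low oxygen, measured in mammary glands of female mice on a high-fat or a control diet. They were taken as a named list, grouped by what their products do, and the list was written with earlier results of these data known. It holds 17 core glycolytic enzymes, 3 glucose and lactate transporters, 3 regulatory kinases, 10 genes grouped as HIF-only targets and the 2 HIF alpha subunits. HIF-only targets here are targets of the hypoxia-inducible factors placed outside the enzyme, transporter and kinase groups. The name does not mean that genes of those other groups are not HIF targets. A probe belonged to a gene through its RefSeq accession, and a gene counted as measured when its probe was well above background on 3 or more of the 6 arrays. All 35 were measured, out of 23460 genes or unnamed transcripts tested, and the probe used for each was well above background on all 6 arrays.

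All 6 mice shared a genotype, Trp53 knockout (Trp53-/-), so no mouse with intact Trp53 enters any comparison. They were assigned at random to a high-fat diet (3 mice) or a control diet (3 mice) at 3 weeks of age and stayed on it for 5 weeks, and the glands were taken at 8 weeks of age. Neither the composition of the diets nor the strain is stated in the labels. The labels give whole mammary glands as the source, while their free text speaks of mammary epithelial cells, and they do not settle which was hybridised. Each mouse gave 1 single-colour array, and the labels call the 3 arrays of a diet biological replicates. A level below is the log2 signal of a probe minus the 75th percentile of its own array, so that 1 unit is a 2-fold step. Levels of different genes come from different probes and are not ranked as amounts of RNA. A difference is the high-fat mean minus the control mean, and a positive value means higher on the high-fat diet.

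Glycolysis splits glucose into pyruvate in the cytosol, and lactate dehydrogenase turns pyruvate into lactate when it is not burned in mitochondria. Many of its enzymes are targets of the hypoxia-inducible factors (HIFs), made of an oxygen-labile alpha subunit and a constant beta subunit: when oxygen falls, prolyl hydroxylation of the alpha subunit slows, the subunit accumulates, and the dimer binds short DNA elements with the core ACGTG or GCGTG. The same factors induce genes outside glycolysis, among them those for angiogenic and vasoactive peptides, pH regulation and mitochondrial turnover. In the mammary gland, ducts of luminal and basal epithelium lie in a fat pad rich in adipocytes, fibroblasts and vessels, and these cell types differ in the glycolytic isozymes they express.

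The arrays held 39429 non-control probes, of which 27203 to 29412 were well above background on an array, and no spot was saturated. The 6 libraries fell along a gradient that only partly followed diet. The first principal component of all genes held 46.7% of the variance, and on it high-fat replicates 1 and 2 lay at -56.0 and -50.1, high-fat replicate 3 and control replicate 1 at 7.35 and 0.58, and control replicates 2 and 3 at 48.8 and 49.4. The arrays came from 3 slides, and only 1 slide held both diets, with high-fat replicates 2 and 3 and control replicate 1. The brightest epithelial and stromal markers lay well above the 75th percentile of their arrays (Krt18 at 7.83, Krt8 at 4.95, Col1a2 at 6.99, means over the 6 arrays). Both the luminal and the basal list also had markers below that percentile. Well above background on every array were 15 of 16 luminal and 12 of 12 basal markers. White adipocyte markers likewise lay on both sides of the percentile, 10 of 12 being well above background on every array. Pnpla2, a triglyceride lipase, was at 2.13, Fabp4, a fatty acid binding protein, at 1.37 and Lpl, lipoprotein lipase, at 1.20, while Plin1, the lipid droplet coat protein, was at -6.12 and Adipoq, the adipocyte hormone adiponectin, at -6.47 and well above background on 5 of 6 arrays. Plin1 and Adipoq were named after their values were seen. In whole-tissue RNA, fewer cells of a type and less RNA per cell cannot be told apart.

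None of the 35 genes passed the test of high-fat against control diet (limma, Benjamini-Hochberg over all 23460, adjusted p under 0.05), beside 0.0171% of all genes, which is 4 genes, all lower (Cacna1s, Igf2, Myh3 and Myl4). The smallest adjusted p among the 35 was 0.293, for Eno2. At an unadjusted p under 0.05 there were 6 of 35 (17.1%), Hk2 and Ldhb on the positive side and Pfkm, Eno2, Pdk1 and Bnip3 on the negative side, beside 13.3% of all genes. By direction that is 2 of 35 higher, beside 5.88% of all genes, and 4 of 35 lower, beside 7.46%. The 3 mice of one diet lay wholly above or below those of the other for 5 of 35 (14.3%), beside 17.2% of all genes: Hk2 and Ldhb higher, where the share of all genes was 8.47%, and Pfkm, Eno2 and Pfkfb3 lower, where it was 8.75%. These shares lie near the background. The differences leaned to one side: 27 of 35 (77.1%) were negative, beside 51.0% of all genes, and their median was -0.20 beside -0.01. The genes are not independent of each other and share the same 6 mice, so that lean carries no test. For 29 of the 35 the 95% interval of the difference included 0.

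**Figure D1:**
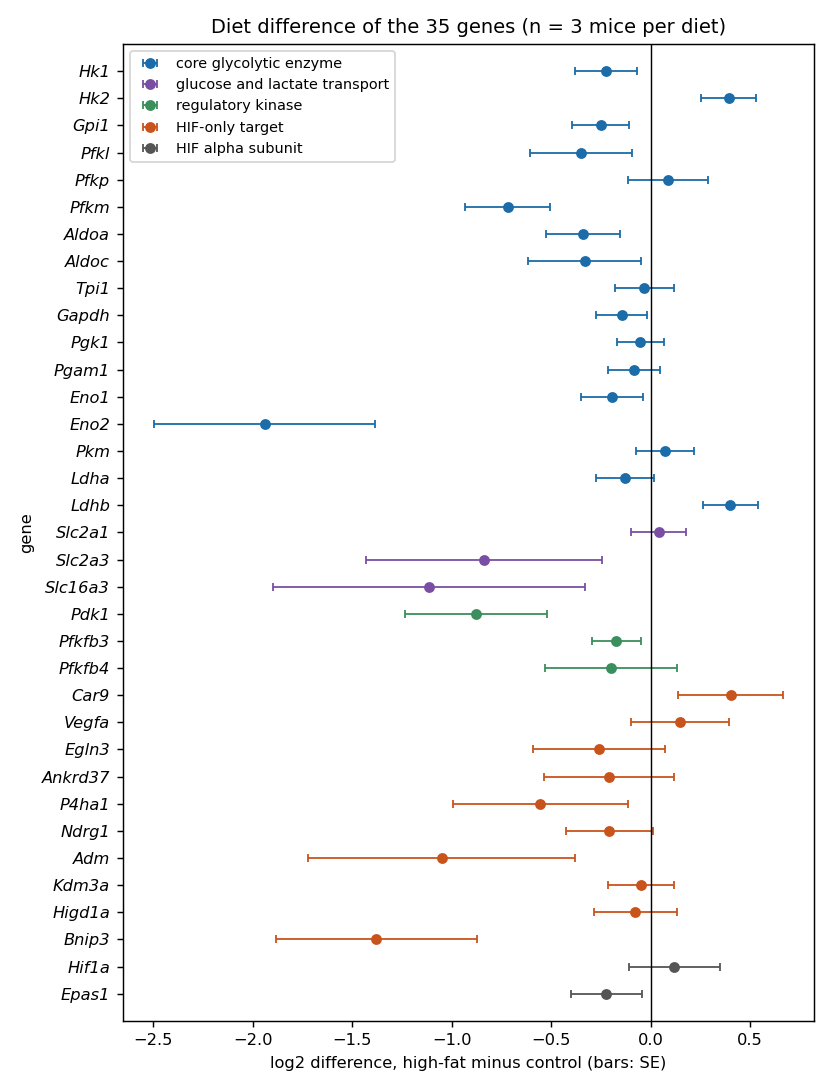
Each point is the fitted log2 difference between diets (high-fat minus control, x axis) for 1 of the 35 genes, with its standard error as the bar and colour giving the gene's role; n = 3 mice per diet. Most points lie left of 0, the widest bars belong to Slc16a3, Adm, Slc2a3, Eno2 and Bnip3, and none passed the adjusted test.

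RefSeq promoter windows, the 250 bases before the annotated start in build GRCm38.p6, show how these genes differ in the element that HIFs bind. The windows are those of the 4 genes whose level varied most over the 6 arrays (Eno2, Slc16a3, Adm and Bnip3) and of the pair on the positive side with separated diets (Hk2 and Ldhb). They read 5′ to 3′ on the gene's strand, and capitals mark every ACGTG or GCGTG found on either strand, so that a match on the other strand appears as CACGT or CACGC.
Eno2: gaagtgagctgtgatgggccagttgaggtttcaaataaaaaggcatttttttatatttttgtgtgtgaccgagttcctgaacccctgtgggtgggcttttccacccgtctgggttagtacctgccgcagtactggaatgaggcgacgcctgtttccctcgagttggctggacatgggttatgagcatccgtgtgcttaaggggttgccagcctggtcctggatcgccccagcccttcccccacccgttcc
Slc16a3: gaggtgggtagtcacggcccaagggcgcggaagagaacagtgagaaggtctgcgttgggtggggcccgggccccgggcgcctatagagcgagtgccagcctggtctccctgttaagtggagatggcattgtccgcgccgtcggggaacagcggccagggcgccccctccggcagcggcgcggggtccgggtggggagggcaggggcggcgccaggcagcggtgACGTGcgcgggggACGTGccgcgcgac
Adm: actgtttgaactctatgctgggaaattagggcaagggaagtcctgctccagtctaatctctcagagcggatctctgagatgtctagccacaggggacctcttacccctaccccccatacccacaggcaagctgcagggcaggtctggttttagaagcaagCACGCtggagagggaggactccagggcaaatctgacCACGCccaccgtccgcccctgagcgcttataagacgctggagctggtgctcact
Bnip3: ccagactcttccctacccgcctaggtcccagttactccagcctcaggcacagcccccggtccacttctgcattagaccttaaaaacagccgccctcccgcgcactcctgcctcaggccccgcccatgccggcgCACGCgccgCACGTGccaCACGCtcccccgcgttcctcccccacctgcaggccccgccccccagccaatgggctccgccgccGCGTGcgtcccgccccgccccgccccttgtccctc
Hk2: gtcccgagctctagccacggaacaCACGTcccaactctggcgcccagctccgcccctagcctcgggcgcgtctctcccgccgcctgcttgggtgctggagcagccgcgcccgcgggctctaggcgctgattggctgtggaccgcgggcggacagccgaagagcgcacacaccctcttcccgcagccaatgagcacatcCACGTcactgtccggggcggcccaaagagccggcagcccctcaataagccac
Ldhb: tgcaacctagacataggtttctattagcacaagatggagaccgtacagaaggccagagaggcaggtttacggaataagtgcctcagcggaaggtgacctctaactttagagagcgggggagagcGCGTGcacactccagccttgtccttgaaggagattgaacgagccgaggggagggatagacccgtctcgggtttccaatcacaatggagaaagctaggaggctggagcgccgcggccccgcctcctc
The windows lie at chr6:124769674-124769923 (minus strand) for Eno2, chr11:120948817-120949066 (plus) for Slc16a3, chr7:110627407-110627656 (plus) for Adm, chr7:138909507-138909756 (minus) for Bnip3, chr6:82774455-82774704 (minus) for Hk2 and chr6:142507958-142508207 (minus) for Ldhb. The Bnip3 window held 5 matches, the nearest 35 bases before the start, and they include a CACGTG E-box, a palindrome that counts as 2 overlapping matches. Slc16a3, Adm and Hk2 held 2 each, the nearest 14, 54 and 52 bases before the start, and Ldhb held 1, 126 bases before it. None was found in the Eno2 window, which says only that these letters are not in those 250 bases.

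Of the 35 genes, 32 had a window, with Slc2a3, Ndrg1 and Epas1 not in the table used. For a gene with several annotated starts only the first listed was read, among them Hk1, Pkm and Vegfa with 2 entries each and Aldoa with 3. ACGTG or GCGTG occurred in 25 of 32 (78.1%), beside 38.6% of all 32851 windows of that length. With the first window of each gene alone, the share was 38.6% of 27025. Of all windows, 16.6% held ACGTG, 28.2% GCGTG and 6.02% CACGTG. Among the HIF-only targets 8 of 9 windows held a core, among the core enzymes 11 of 17. The list includes genes chosen as HIF targets and base composition was not matched, so these shares describe the promoters and were not tested. Genes at both ends of the count of matches had large and small diet differences. Bnip3 and Ldha held 5 each, with differences of -1.38 and -0.13. Hk1, Gpi1, Aldoa, Tpi1, Eno2, Pkm and Vegfa held none in the window read, with differences from -1.94 to 0.15. Other starts of these genes were not scanned.

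The 17 core enzymes carry glucose to pyruvate and lactate. None passed the adjusted test, 13 differences were negative and 4 positive, and the median was -0.15. Most of these genes were steady from mouse to mouse: for 13 of 17 the 6 levels spanned less than 0.71, and the median SD over the arrays was 0.21, beside 0.25 for all genes. For 14 of 17 the 95% interval lay within 1 log2 unit of 0, so that a diet difference beyond 2-fold was outside the interval for those genes. The exceptions were Pfkm, Eno2 and Aldoc.

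Hexokinases trap glucose in the cell by phosphorylation, and the 2 measured here leaned in opposite directions. Hk2 (NM_013820), the insulin-responsive form of muscle and fat and of many tumours, read 0.86, 0.59 and 0.59 in the 3 high-fat mice and 0.44, 0.20 and 0.23 in the 3 control mice. Every high-fat mouse was above every control mouse, with means of 0.68 ± 0.15 and 0.29 ± 0.13 (SD, n = 3 each). They differed by 0.39 (SE 0.14, adjusted p = 0.347, limma), which is 1.31-fold. Between the mice of the shared slide it was 0.15. Hk1, the widely expressed form, read 3.23, 3.51 and 3.21 on the high-fat diet and 3.32, 3.61 and 3.70 on the control diet, overlapping ranges with a difference of -0.22 (SE 0.16, adjusted p = 0.529). Gpi1, which isomerises glucose 6-phosphate to fructose 6-phosphate, differed by -0.25 (SE 0.14), with the highest level, 6.32, in control replicate 3.

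Phosphofructokinase commits the sugar to glycolysis, and its 3 subunit genes did not move as one. Pfkm (NM_021514), the muscle-type subunit, read -0.56, -0.26 and 0.06 in the high-fat mice and 0.18, 0.54 and 0.68 in the control mice. All high-fat mice were below all control mice, by -0.72 (SE 0.21, adjusted p = 0.304, limma), 1.65-fold, which did not pass the threshold. Pfkl, the liver-type subunit, differed by -0.35 (SE 0.26), with overlapping diets and its lowest level, 1.03, in high-fat replicate 1. Pfkp, the platelet-type subunit, differed by 0.08 (SE 0.20), and its 95% interval ran from -0.40 to 0.57.

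With the probes used, the balance of Pfkm with Pfkp varied less among mice of a diet than either level alone. Pfkm minus Pfkp was -0.61, -0.55 and -0.62 in the high-fat mice and 0.12, 0.09 and 0.42 in the control mice. These values depend on the probe used for each gene, so only their change between diets has a meaning, and its size too can shift with the probe. That change was -0.80, with diets apart and an exact two-sided permutation p of 0.1, the smallest that 3 against 3 mice allow. A dimmer Pfkp probe read -3.79, -3.76 and -3.61 in the high-fat mice and -3.98, -3.47 and -3.61 in the control mice. It did not follow Pfkm among the high-fat mice as closely, and the balance was not computed with it. Among 9 isozyme or paralog pairs chosen after the values were seen, 3 had diets that did not overlap: this pair, Pfkm over Pfkl with -0.37 and Eno2 over Eno1 with -1.74, each at an exact p of 0.1 and 0.3 after Benjamini-Hochberg adjustment over the 9. Each of these pairs holds a gene whose diets were already apart on its own, Pfkm or Eno2. On the slide that held both diets, the Pfkm over Pfkp difference was -0.71, while that of Pfkm itself was -0.28. Leaving out 1 mouse at a time kept it between -0.86 and -0.70. Skeletal muscle markers had diets apart on average: the mean of the 24 measured was -3.86, -3.93 and -3.93 on the high-fat diet and -2.68, -2.63 and -2.92 on the control diet, 20 of 24 differences being negative. Tnnc2, fast troponin C, differed by -2.40 and Tnnt1, slow troponin T, by -1.08, but Acta1, skeletal muscle actin, had overlapping diets and a difference of 0.01. With the mean of these markers as a covariate, which nearly coincides with diet, the Pfkm difference was -2.34. That fit cannot tell muscle from diet, and whether muscle cells have a part in the Pfkm difference was not tested.

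The steps from aldolase to pyruvate kinase are catalysed by abundant enzymes, and the diets overlapped for every one except Eno2. Aldoa and Aldoc, which cleave fructose 1,6-bisphosphate, differed by -0.34 (SE 0.19) and -0.33 (SE 0.29). Tpi1, which interconverts the triose phosphates, differed by -0.03 (SE 0.15), and Gapdh, which oxidises glyceraldehyde 3-phosphate, by -0.15 (SE 0.13), with high-fat levels of 7.79, 7.91 and 7.90 and control levels of 7.84, 8.09 and 8.10. Pgk1 and Pgam1, the kinase and the mutase that follow, differed by -0.05 (SE 0.12) and -0.09 (SE 0.13). Eno1, the general enolase, differed by -0.20 (SE 0.16), and Pkm, pyruvate kinase of most tissues, by 0.07 (SE 0.14). Several of these genes have near-identical processed copies in the mouse genome, and how far a probe also reads them was not tested.

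Eno2 (NM_013509), the enolase of neurons and neuroendocrine cells and a known HIF target, had the largest difference of the 35. It read -3.77, -3.11 and -1.73 in the high-fat mice and -1.55, -0.83 and -0.41 in the control mice. The diets did not overlap, but the gap between high-fat replicate 3 and control replicate 1 was small beside the spread within each diet. The means were -2.87 ± 1.04 and -0.93 ± 0.58 (SD, n = 3 each), which puts the difference at -1.94 (SE 0.56, adjusted p = 0.293, limma), 3.84-fold lower on the high-fat diet, with a 95% interval from -3.28 to -0.60. Between the mice of the shared slide the difference was -0.87, and leaving out 1 mouse at a time moved it between -2.51 and -1.49.

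Lactate dehydrogenase closes the pathway, with Ldha as the subunit of lactate-producing tissue and Ldhb as that of lactate-consuming tissue. Ldhb (NM_008492) read 2.31, 2.25 and 2.41 on the high-fat diet and 2.12, 1.77 and 1.89 on the control diet, with every high-fat mouse above every control mouse. The difference was 0.40 (SE 0.14, adjusted p = 0.338, limma), 1.32-fold, and on the shared slide 0.21. Ldha read 7.30, 7.53 and 7.46 against 7.34, 7.67 and 7.68, overlapping, with a difference of -0.13 (SE 0.15). The Ldhb to Ldha balance differed by 0.53 between diets, with overlapping mice (exact permutation p = 0.2), and by 0.06 on the shared slide. The size of that change depends on the Ldha probe, since its other measured probes had differences of 0.09 and 0.16.

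**Figure D2:**
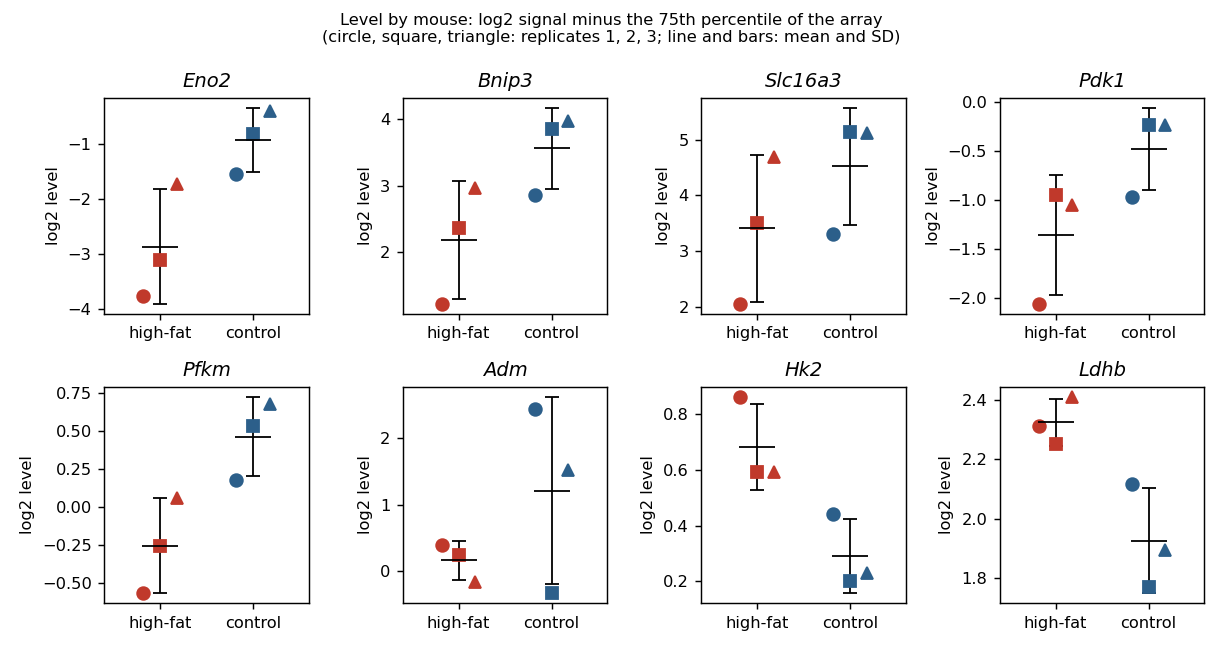
Levels of 8 genes by mouse (y axis, log2 signal minus the 75th percentile of the array; each panel has its own range), high-fat mice in red and control mice in blue; circle, square and triangle are replicates 1, 2 and 3, and the line and bars are mean and SD of 3 mice. Diets are apart for Eno2, Pfkm, Hk2 and Ldhb and overlap for Bnip3, Slc16a3, Pdk1 and Adm; in the upper row high-fat replicate 1 is the lowest point of every panel.

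Transport across the plasma membrane is served by Slc2a1 and Slc2a3, the glucose carriers GLUT1 and GLUT3, and by Slc16a3, the lactate exporter MCT4 of glycolytic cells. Slc2a1 hardly varied, at 4.28, 4.58 and 4.35 on the high-fat diet and 4.22, 4.44 and 4.44 on the control diet, a difference of 0.04 (SE 0.14) with an interval from -0.30 to 0.38. Slc16a3 (NM_030696) varied widely, at 2.05, 3.50 and 4.68 against 3.31, 5.15 and 5.11. Its diets overlapped, the difference was -1.11 (SE 0.78, adjusted p = 0.529, limma), and within the shared slide it had the other sign, 0.78. Without high-fat replicate 1 the difference was -0.43. Slc2a3 read -3.08, -2.91 and -1.37 against -2.58, -0.97 and -1.30, a difference of -0.84 (SE 0.59), and on the shared slide 0.45. For both of these carriers the low mice were high-fat replicates 1 and 2 and control replicate 1.

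The regulatory kinases set the pace around the pathway, and all 3 had a negative difference. Pdk1 (NM_172665), the kinase that holds pyruvate out of the mitochondrial citrate cycle, read -2.06, -0.95 and -1.05 on the high-fat diet and -0.96, -0.23 and -0.23 on the control diet. High-fat replicate 1 was lowest and high-fat replicate 2 overlapped control replicate 1, with a difference of -0.88 (SE 0.36, adjusted p = 0.373, limma) that shrank to -0.52 with high-fat replicate 1 left out and to -0.04 between the mice of the shared slide. Pfkfb3 and Pfkfb4 make fructose 2,6-bisphosphate, the activator of phosphofructokinase. Pfkfb3 had diets just apart, -0.34, -0.26 and -0.25 against -0.22, -0.16 and 0.05, a difference of -0.17 (SE 0.12, adjusted p = 0.538), and Pfkfb4 differed by -0.20 (SE 0.33).

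The 10 HIF-only targets were more variable than the enzymes, without a difference that passed: 8 were negative and 2 positive, and the median was -0.21. For 6 of the 10 the 6 levels spanned more than 1 log2 unit, against 4 of 17 core enzymes. The median SD over the arrays was 0.42, beside 0.21 for the core enzymes and 0.25 for all genes. Their probes also read at lower signal, with array means of 0.74 to 1.50 against 3.65 to 4.22 for the enzymes. Whether signal level has a part in the spread was not tested. Bnip3 (NM_009760), which marks mitochondria for removal, read 1.22, 2.36 and 2.96 on the high-fat diet and 2.86, 3.85 and 3.98 on the control diet. Only high-fat replicate 3 reached into the control range, and the difference was -1.38 (SE 0.51, adjusted p = 0.354, limma), 2.60-fold lower, with an interval from -2.60 to -0.16. Leaving out high-fat replicate 1 gave -0.90, and the shared slide alone gave -0.19. The 3 probes of the gene gave -1.38, -1.29 and -0.95.

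Adm (NM_009627), the vasodilator peptide adrenomedullin, had the widest control group, with 2.44, -0.33 and 1.53 against 0.40, 0.24 and -0.16 on the high-fat diet. Control replicate 2 lay below every high-fat mouse, so the difference of -1.05 (SE 0.67, adjusted p = 0.496) rests on the other two control mice. It was -0.44 without control replicate 1, -1.82 without control replicate 2 and -2.40 on the shared slide. Vegfa, the main angiogenic growth factor, differed by 0.15 (SE 0.25), and Car9, the membrane carbonic anhydrase used as a marker of hypoxia, by 0.40 (SE 0.26), with -0.04, 0.50 and 0.43 against 0.31, -0.57 and -0.05. These were the only HIF-only targets with a positive difference, and their diets overlapped. Leaving out control replicate 1 turned Vegfa to -0.05, and leaving out high-fat replicate 3 to -0.01. Car9 came to 0.17 without control replicate 2.

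The remaining HIF-only targets all had overlapping diets. Egln3, the prolyl hydroxylase PHD3 that feeds back on HIF alpha, differed by -0.26 (SE 0.33). Ankrd37, an ankyrin repeat protein induced by low oxygen, differed by -0.21 (SE 0.32). P4ha1, a collagen prolyl hydroxylase subunit, differed by -0.55 (SE 0.44), with its lowest level, -1.64, in high-fat replicate 1. Ndrg1, a stress-responsive gene, differed by -0.21 (SE 0.22), Higd1a, a mitochondrial inner membrane protein, by -0.08 (SE 0.21), and Kdm3a, a histone H3 lysine 9 demethylase, by -0.05 (SE 0.17).

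The alpha subunits differed little between diets, within wide errors. Hif1a, the general alpha subunit, read 1.40, 1.00 and 1.50 on the high-fat diet and 1.49, 0.79 and 1.26 on the control diet, a difference of 0.12 (SE 0.23, adjusted p = 0.818, limma). Epas1, the HIF-2 alpha subunit prominent in endothelium, differed by -0.22 (SE 0.18), and its other two probes gave -0.49 and -0.47. HIF alpha is controlled mainly through protein stability, which an RNA array does not read.

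Set side by side, core enzymes and HIF-only targets differed little in how they stood with diet. The mean level of the 17 enzymes was 3.65, 3.91 and 3.97 in the high-fat mice and 3.91, 4.08 and 4.22 in the control mice, and that of the 10 HIF-only targets was 0.74, 1.22 and 1.23 against 1.27, 1.39 and 1.50. The diets overlapped for the enzymes and lay just apart for the targets, with 1.23 in high-fat replicate 3 next to 1.27 in control replicate 1. Enzymes minus targets came to 2.91, 2.69 and 2.74 on the high-fat diet and 2.64, 2.69 and 2.72 on the control diet. Here the diets overlapped, with means of 2.78 ± 0.11 and 2.68 ± 0.04 (SD, n = 3 each). The difference of 0.10 was smaller than the SD of the high-fat group and larger than that of the control group. No p is given for these means, since they are scores over chosen genes.

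The 35 genes also varied together among mice of the same diet. High-fat replicate 1 held the lowest level of 21 of the 35 genes, beside 17.9% of all genes, and 32 of 35 were below their own mean there, including all 10 HIF-only targets. Control replicate 1 came next, with 25 of 35 below their own mean, although it is a control mouse. Control replicate 3 held the highest level of 15 genes, beside 18.0% of all genes, and control replicate 2 of 8, near the 23.3% of all genes. High-fat replicates 2 and 3 sat near the middle, with 18 and 17 of 35 below their mean.

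**Figure D3:**
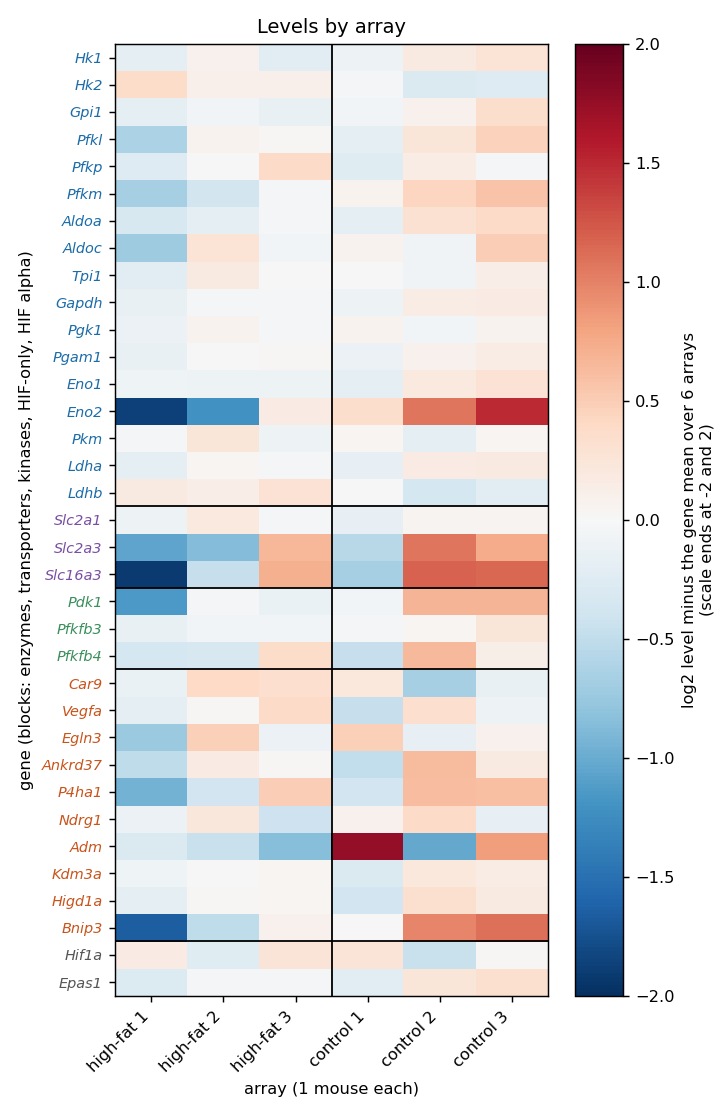
Level of each of the 35 genes (rows, in blocks by role) on each of the 6 arrays (columns, 3 high-fat then 3 control), shown as log2 level minus the gene's mean over the arrays, blue below and red above. The column of high-fat replicate 1 is mostly blue and those of control replicates 2 and 3 are mostly red, with Eno2, Slc2a3, Slc16a3, Pdk1 and Bnip3 the strongest, while control replicate 1 is mixed, strongest for Adm in red, with Egln3, Eno2 and Hif1a above and Slc2a3 and Slc16a3 below their means.

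Cell type markers moved across the same mice. The mean of the 8 fibroblast markers, led by Col1a2 and Dcn, was 3.75, 3.83 and 5.02 on the high-fat diet and 4.93, 5.42 and 5.71 on the control diet, all 8 differences being negative. The 16 luminal markers, led by Krt18, averaged 1.26, 1.50 and 0.50 against 0.89, 0.30 and 0.37, with 14 of 16 positive, and the 12 basal markers, led by Acta2, 2.67, 2.54 and 2.66 against 1.66, 1.99 and 1.65, with 12 of 12 positive. The 12 white adipocyte markers had overlapping diets, -3.59, -3.19 and -3.25 against -3.74, -3.36 and -3.24. The 7 measured brown adipocyte markers had diets apart, -4.33, -4.44 and -4.80 against -3.34, -4.05 and -3.66, a difference of -0.84 with all 7 negative. Among them Ucp1, the defining uncoupling protein, was well above background on 4 of 6 arrays. The part of these cell types in the levels of the 35 genes was not tested.

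**Figure D4:**
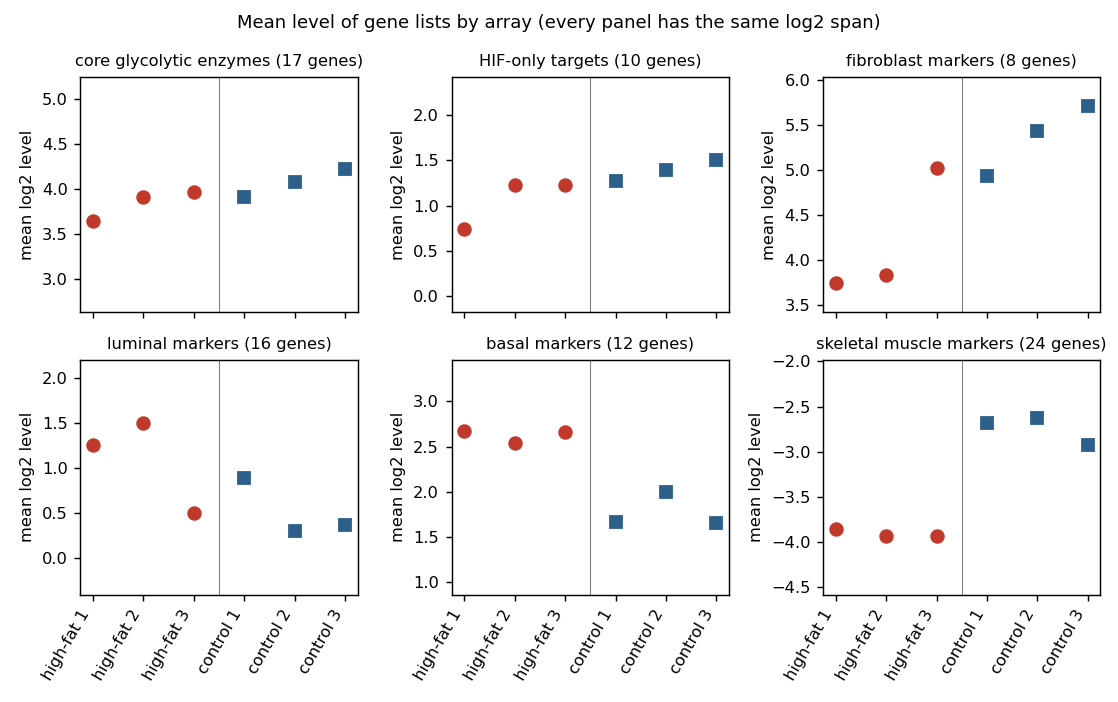
Mean log2 level (y axis, every panel with the same span) of 6 gene lists on each array (x axis), high-fat mice as red circles and control mice as blue squares. Basal and skeletal muscle markers have diets well apart, core enzymes and luminal and fibroblast markers overlap, and the HIF-only targets are lowest in high-fat replicate 1, with the other 5 mice between 1.22 and 1.50 and a narrow gap between diets.

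The lean towards lower levels on the high-fat diet did not hold within the slide that carried both diets. There, high-fat replicates 2 and 3 against control replicate 1 gave 24 of 35 positive differences. The median was 0.08 for the core enzymes and 0.23 for the HIF-only targets, beside 0.03 for all genes. That comparison has 1 control mouse, and the other slides hold 1 diet each. Hk2, Ldhb, Pfkm, Eno2, Bnip3, Pdk1, Adm, Gpi1 and Pgk1 kept their sign on that slide and in the other alternatives run. Leaving out high-fat replicate 1 brought the core median to -0.07 and the HIF-only median to -0.01, and leaving out control replicate 2 brought the latter to -0.01. When arrays were weighted by their estimated quality, 8 of 35 genes passed the adjusted test (Pfkm, Eno2, Bnip3, Ldhb, Hk2, Aldoa, Slc2a3 and Pdk1), beside 23.1% of all genes in the same fit, which gave control replicate 3 a weight of 4.69 and control replicate 1 one of 0.339.

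Where a gene had more than 1 measured probe, the probes could be set against each other. Of 14 such genes, 6 had probes that differed in the sign of the diet difference: Gapdh, Higd1a, Ldha, Pfkfb3, Pfkp and Tpi1. The differences were small for all of them except Pfkfb3, where the probe used gave -0.17 and a dimmer one for another transcript 0.75, the largest gap at 0.92. Ldha had probes at -0.13, 0.09 and 0.16, and the 7 probes of Gapdh ran from -0.18 to 0.07. The 2 probes of Slc16a3 gave -1.11 and -1.08, and those of P4ha1 -0.55 and -0.77.

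**Figure D5:**
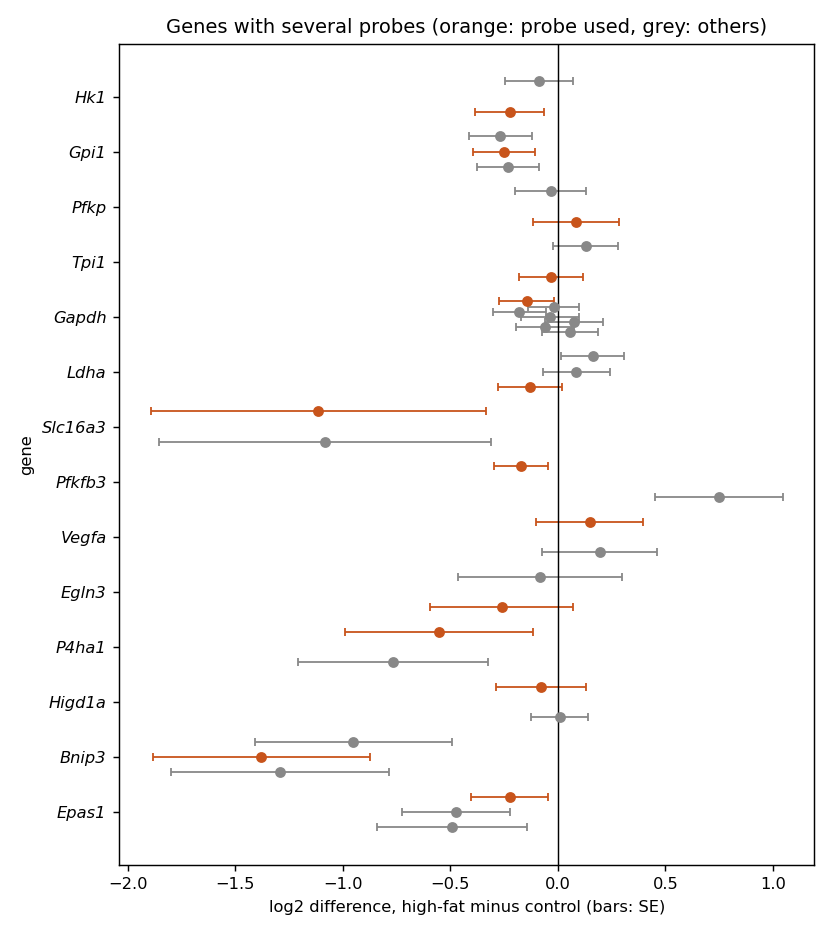
Diet difference (x axis, log2, high-fat minus control, bars: standard error) of every measured probe for the 14 genes with several, the probe used in orange and others in grey. Probes of Slc16a3, Gpi1 and Vegfa lie close together, those of Bnip3 are spread by 0.43 on the negative side, and those of Pfkfb3 lie on both sides of 0.

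Other genes of the pathways were also without a call. Of 41 other glycolysis genes (tissue-restricted isozymes, glycogen and gluconeogenic enzymes and further transporters), none passed the adjusted test, 20 differences were positive and 21 negative, and their median was -0.02. At an unadjusted p under 0.05 there were 6 of 41 on the positive side, beside 5.88% of all genes, and 5 of 41 on the negative side, beside 7.46%. Diets did not overlap for 5 of 41 on the positive side, beside 8.47% of all genes, and 6 of 41 on the negative side, beside 8.75%. These shares of the list lie above those of all genes, and the list was not tested as a whole. The 4 with the smallest p were Pgam2, the muscle phosphoglycerate mutase, at -0.78 (SE 0.17, adjusted p = 0.230, limma), Pklr, pyruvate kinase of liver and red cells, at -1.09 (SE 0.27, 0.261), Pygb, the brain glycogen phosphorylase, at 0.50 (SE 0.13, 0.275), and Eno3, the muscle enolase, at -0.79 (SE 0.22, 0.281). Each had diets that did not overlap. The muscle isozymes Pgam2 and Eno3 stood beside the skeletal muscle markers given above, whose part was not tested.

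Of 43 other genes of the HIF pathway, none passed, and 16 differences were positive and 27 negative. At an unadjusted p under 0.05 there were 2 on the positive and 4 on the negative side, a share near the 13.3% of all genes. Diets did not overlap for 4 of 43 on the positive side, beside 8.47% of all genes, and 6 of 43 on the negative side, beside 8.75%. These shares without overlap lie above those of all genes, and the list was not tested as a whole. Angptl4, a secreted inhibitor of lipoprotein lipase driven by both HIFs and fatty acid receptors, read 3.41, 4.16 and 4.31 on the high-fat diet and 6.29, 5.41 and 6.75 on the control diet. Its diets were apart by -2.19 (SE 0.40, adjusted p = 0.193, limma), 4.57-fold lower. Hilpda, which coats lipid droplets in hypoxic cells, differed by -0.58 (SE 0.15, adjusted p = 0.261), and Rora, a nuclear receptor, by -1.04 (SE 0.31, adjusted p = 0.302), both with diets apart. These named genes of both lists were taken from those with the smallest p of each list, and that choice favours large differences.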

How the data were processed

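RNA of 6 mammary gland samples, 3 per diet, was hybridised in 1 colour (Cy3) to Agilent mouse arrays. The deposited scanner files hold spot intensity extracted with Agilent Feature Extraction 11.0.1.1, per the submitters' processing notes, and the processed signal used here stands beside a background-subtracted signal column, per the file headers. The series' deposited value table was a linear rescaling of that intensity (all its values within 1% of a fixed ratio per array), neither logged nor centred, and was used as an alternative. Column medians of that table ran from 0.134 to 0.140.

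From these files, control spots and outlier spots were left out, spots of a probe averaged, and each log2 signal set against the 75th percentile of its array. Of 39429 probes, 111 had no usable spot on every array, 27427 matched 1 symbol through RefSeq accessions, and 28689 were well above background on 3 or more arrays. A gene took its probe with the highest mean level. With limma 3.58.1 (R 4.3.3), a model of diet alone was fitted by lmFit and eBayes to all 23460 genes or unnamed transcripts, two-sided, with Benjamini-Hochberg adjustment over all of them and a threshold of 0.05. The fit was also run on simulated data with independent noise per gene and no slide or array effect. That run does not cover the gradient among arrays or the slide layout described above. Precision is limited by the number of arrays.

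The 35 genes and the other lists were chosen with earlier results of these data known, and nothing here is independent of that. Every one of the 35 is named, and of the other pathway lists the 4 with the smallest p, since none passed (1 of these is not reported here); marker genes are named by highest mean level. Isozyme pairs were added after the values were seen and tested by exact permutation over mice (scipy 1.17.1).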

Additional observations from a re-analysis of the deposited data

How the results depend on the processing

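The count of genes past the adjusted test, 4 in the settings reported, ranged widely. It was 2 with arrays centred on the median, 7 with normexp and quantile normalization and with probes well above background on all 6 arrays, and 5410 with array weights. It was 0 with quantile normalization, the 75th percentile over detected probes, normexp with the 75th percentile, no filter, the slide as a fixed block, the shared slide alone, and the skeletal muscle or luminal markers as a covariate. Leaving out 1 mouse at a time gave 0 to 37, the 37 without high-fat replicate 3. With the replicate block it was 0 (4044 genes at an unadjusted p under 0.05), and the medians of the core enzymes and HIF-only targets stayed at -0.15 and -0.21. The labels give the numbers no pairing, and same-numbered mice had correlations of deviations of 0.33, -0.14 and 0.25. Array weights were the only one of the 25 alternatives under which any of the 35 genes passed. The core median moved to 0.079 with the slide as a fixed block and on the shared slide alone, and to -1.05 with the muscle covariate, which nearly coincides with diet. The HIF-only median moved to 0.23, 0.23 and -0.85 in the same settings. Without 1 mouse the core median ran from -0.24 to -0.07 and the HIF-only median from -0.36 to -0.0091, and enzymes minus targets from 0.03 to 0.14. Normexp with the 75th percentile shifted the median of all genes to 0.27, with the core median at -0.30. The cause of these moves was not tested. With 3 mice per diet, every comparison is limited by their number.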
